A study of Mus musculus with 14 samples.

Results

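Glycolysis and hypoxia response genes were described here across skeletal muscle and brain of newborn mice with and without Celf1. The set was a list of 36 gene symbols. It covered the enzymes and transporters that take a cell from glucose to lactate, and genes whose transcription rises when oxygen falls. Of these, 34 were measured among 21893 named genes. The annotation of the array held no probe named Gpi1 or Eno1, so glucose-6-phosphate isomerase and the main enolase were not analysed here.

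RNA had been hybridised to 14 one-colour (Cy3) Agilent arrays to ask how loss of Cugbp1, now named Celf1, alters gene expression in both tissues. Its product binds mRNAs and controls how they are spliced, translated and degraded. The 4 groups were skeletal muscle (SM) of wild-type (WT) mice with 3 arrays, SM of knockout (KO) mice with 3, brain of WT mice with 4 and brain of KO mice with 4. All mice were on the C57BL6 background, untreated, and 1 day old. The KO carries a trap vector ahead of the start codon of Cugbp1, brought in through BayGenomic embryonic stem cells. The sources used here do not give how many lines were made from those cells. The labels do not say whether arrays of 1 group came from different litters, so the p-values measure only the spread between these samples, which may be technical.

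Glycolysis splits glucose into pyruvate. When oxygen is short, pyruvate is turned to lactate by lactate dehydrogenase and exported rather than burned in mitochondria. In oxygen, prolyl hydroxylases of the Egln family mark the HIF alpha subunits for destruction. In hypoxia HIF accumulates, pairs with Arnt, binds the DNA core ACGTG or GCGTG and raises transcription of most glycolytic genes, of glucose and lactate transporters, and of its own inhibitors. Skeletal muscle and brain use different isoforms of several of these enzymes.

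The promoters shown here belong to 6 members whose highest brain levels lay on the same 2 arrays, as described later (Hk2, Ldha, Slc16a3, Bnip3, Ankrd37 and P4ha1), and to Pgam2, a muscle isoform that did not share the pattern. They are RefSeq windows of GRCm38.p6, each from 250 bases before to 50 bases after an annotated gene start, read in the direction of the gene. Capitals mark ACGTG, or its reverse complement CACGT where the motif lies on the other strand. The palindrome CACGTG counts on both strands.
Hk2, chr6:82774405-82774704, minus strand: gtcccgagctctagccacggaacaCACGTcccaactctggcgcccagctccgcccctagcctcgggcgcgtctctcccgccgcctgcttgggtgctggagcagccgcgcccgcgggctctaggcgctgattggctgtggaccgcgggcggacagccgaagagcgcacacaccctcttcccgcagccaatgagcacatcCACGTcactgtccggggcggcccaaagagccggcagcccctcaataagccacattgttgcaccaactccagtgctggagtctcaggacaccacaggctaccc
Ldha, chr7:46845554-46845853, plus strand: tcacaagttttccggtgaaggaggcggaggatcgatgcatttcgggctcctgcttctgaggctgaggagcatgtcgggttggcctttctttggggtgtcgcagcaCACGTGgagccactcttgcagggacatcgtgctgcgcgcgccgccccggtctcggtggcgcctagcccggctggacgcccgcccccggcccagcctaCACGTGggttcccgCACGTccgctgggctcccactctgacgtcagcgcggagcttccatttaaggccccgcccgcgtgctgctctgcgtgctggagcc
Slc16a3, chr11:120948817-120949116, plus strand: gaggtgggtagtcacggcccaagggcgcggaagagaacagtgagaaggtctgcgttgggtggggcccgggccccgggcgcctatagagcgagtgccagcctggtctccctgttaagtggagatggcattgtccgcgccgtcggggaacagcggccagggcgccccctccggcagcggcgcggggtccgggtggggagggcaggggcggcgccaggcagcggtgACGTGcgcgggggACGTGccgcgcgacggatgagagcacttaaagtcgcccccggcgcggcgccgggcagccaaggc
Bnip3, chr7:138909457-138909756, minus strand: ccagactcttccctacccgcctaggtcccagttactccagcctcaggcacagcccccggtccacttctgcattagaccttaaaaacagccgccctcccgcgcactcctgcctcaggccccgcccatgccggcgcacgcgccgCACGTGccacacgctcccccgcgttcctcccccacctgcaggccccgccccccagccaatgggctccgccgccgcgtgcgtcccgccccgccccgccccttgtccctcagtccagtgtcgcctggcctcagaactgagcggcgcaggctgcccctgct
Ankrd37, chr8:45999801-46000100, minus strand: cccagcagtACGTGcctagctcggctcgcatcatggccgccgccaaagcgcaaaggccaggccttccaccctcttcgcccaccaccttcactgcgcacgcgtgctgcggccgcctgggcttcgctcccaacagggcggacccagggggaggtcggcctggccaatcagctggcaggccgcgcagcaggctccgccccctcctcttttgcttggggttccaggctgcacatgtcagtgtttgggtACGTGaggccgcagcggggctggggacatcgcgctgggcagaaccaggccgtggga
P4ha1, chr10:59323046-59323345, plus strand: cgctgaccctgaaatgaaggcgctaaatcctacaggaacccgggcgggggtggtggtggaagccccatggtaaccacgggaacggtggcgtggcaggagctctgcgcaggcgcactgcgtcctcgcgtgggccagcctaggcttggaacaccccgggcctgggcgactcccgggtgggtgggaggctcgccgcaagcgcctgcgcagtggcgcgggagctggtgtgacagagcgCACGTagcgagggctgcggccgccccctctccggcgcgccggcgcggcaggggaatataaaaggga
Pgam2, chr11:5803747-5804046, minus strand: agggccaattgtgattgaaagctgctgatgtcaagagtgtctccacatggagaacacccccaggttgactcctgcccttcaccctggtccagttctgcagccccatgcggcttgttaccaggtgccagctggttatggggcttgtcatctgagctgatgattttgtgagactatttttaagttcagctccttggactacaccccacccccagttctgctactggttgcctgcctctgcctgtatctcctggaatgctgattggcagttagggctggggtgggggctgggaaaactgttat

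The Ldha window held 5 matches of ACGTG over both strands, those of Hk2, Slc16a3, Bnip3 and Ankrd37 held 2 each, that of P4ha1 held 1 and that of Pgam2 held 0. The windows shown do not stand for all members. Tpi1, Pfkl, Pfkp, Adm, Pdk1 and Kdm3a shared the brain pattern and held no ACGTG in any window. Of the members without the pattern, Hk1 (with the probe used) and Mxi1 held matches, and Eno3 and Ldhb held none. Windows were given for 34 of the 36 listed symbols, not for Slc2a4 and Ndrg1. ACGTG was present on either strand in at least 1 window of 23 of these 34 genes (67.6%), against 21.8% of all 27025 genes with a window. Counted by window it was present in 26 of 51 (51.0%), against 19.6% of all 32851 windows. With GCGTG counted as well, 31 of 34 genes (91.2%) held a match, against 46.7% of all genes. These matches are letters in a window and no measurement of HIF binding.

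Levels are given as log2 intensity relative to the 75th percentile of the named probes of the array, and each gene is represented by 1 probe. The lowest intensities of the arrays lay between 2.04 and 3.51 and their 75th percentiles between 883.2 and 1398. Detection flags were not used, and precision is limited by how many arrays each group has. Celf1 stood at 1.81, 2.03 and 1.67 on the WT muscle arrays and -0.43, -1.30 and -1.08 on the KO muscle arrays, and at 2.30, 2.32, 2.28 and 2.35 on the WT brain arrays and 0.69, 0.63, 0.57 and 0.51 on the KO brain arrays. It lay lower on every KO array than on any WT array of its tissue, with log2 differences of -2.77 ± 0.30 (SE) in muscle (limma adjusted p = 0.312) and -1.71 ± 0.082 in brain (adjusted p = 0.000534). The brain call was lost without WT brain arrays 3 and 4 (adjusted p = 0.08, log2 difference -1.71). The neuron list was higher in WT brain than in WT muscle by a median of 8.01 and the median of the skeletal muscle list was -10.29, so tissue labels and markers matched. Several arrays stood apart before any comparison. WT brain arrays 3 and 4 were the closest pair of any group, with an SD of the log2 difference between them of 0.204 over 10926 genes, where other pairs within a brain group had 0.239 to 0.458. The labels list them as separate samples. Each KO minus WT difference in brain of a measured member other than Mxi1 is also given without both. Between WT tissues the member median is given without them, but most single members are not. WT muscle array 3 lay farthest from its group, with 1871 and 1811 of the 10926 genes over 2-fold apart from arrays 1 and 2, against 782 between those arrays.

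Most members were highest on the same few arrays. WT brain arrays 3 and 4 were the 2 highest of the 8 brain arrays in 29 of 34 members (85.3%), a pattern that 15.4% of all genes showed. The exceptions were Hk1, Pgam2, Eno3, Ldhb and Mxi1. That of Hk1 held for the probe used, while its other 2 probes had WT brain arrays 3 and 4 as the 2 highest. In muscle, WT array 3 was the highest of 6 in 26 of 34 members, against 25.8% of all genes. In bulk tissue a change in the share of cells of a type and a change in RNA per cell cannot be told apart.

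**Figure D1:**
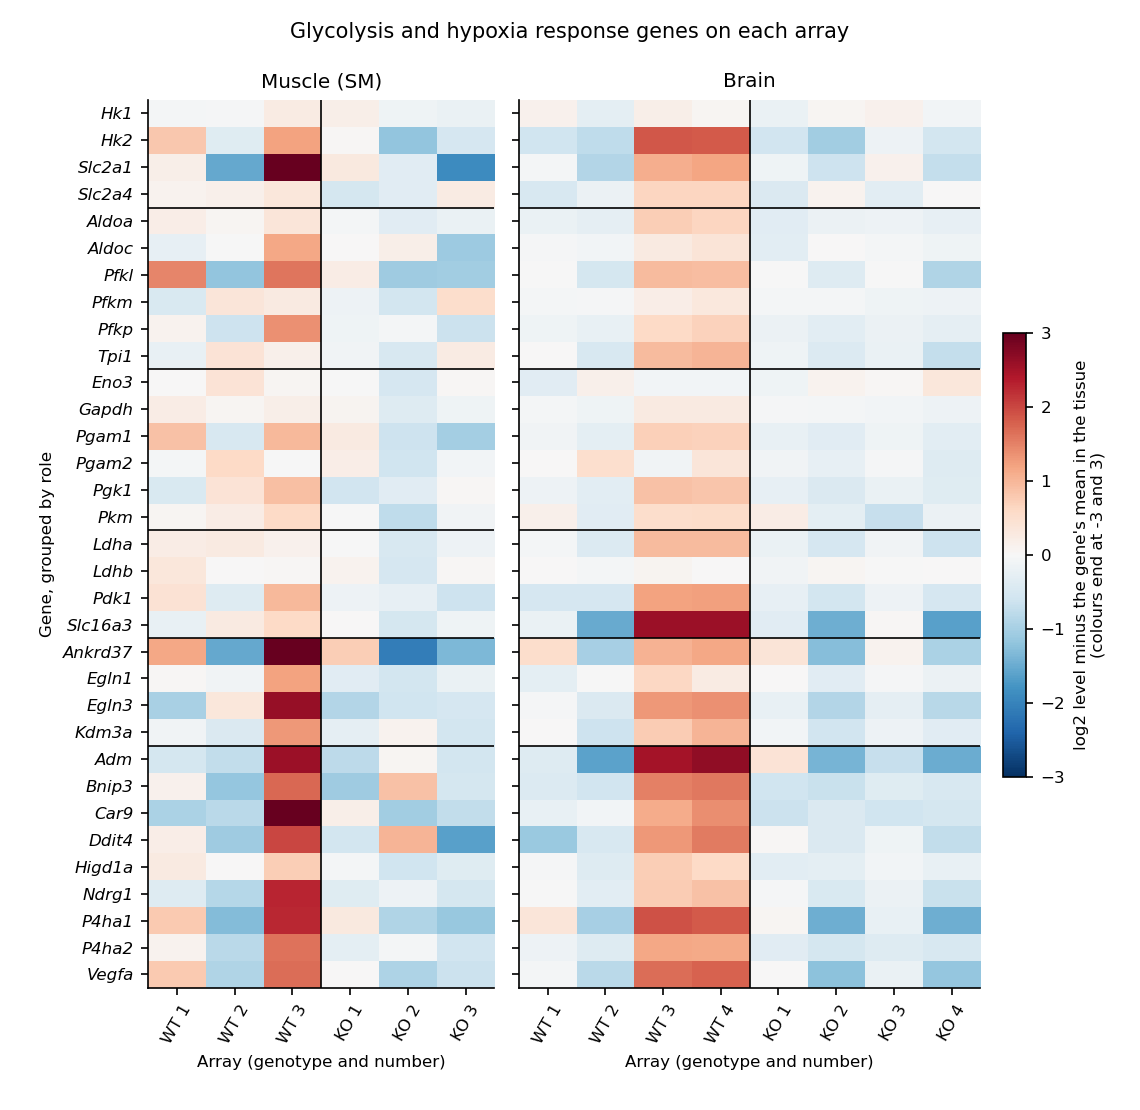
Each row is 1 of 33 measured genes (Mxi1, near the lowest intensities, is left out) and each column 1 array, muscle at left and brain at right, with WT left of the vertical line. Colour gives the log2 level minus the gene's mean over the arrays of that tissue. The columns of WT brain arrays 3 and 4 and of WT muscle array 3 are high for most genes, while the rows of Hk1 (with the probe used), Eno3, Pgam2 and Ldhb in brain are not.

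Among the hypoxia effectors, Adm encodes adrenomedullin, a peptide that widens blood vessels. Its level in brain was -2.95, -4.17, -0.07 and 0.11 on the WT arrays and -2.15, -3.97, -3.26 and -4.07 on the KO arrays. WT arrays 3 and 4 lay far above the other 6, which overlapped between genotypes, and the brain arrays spanned 19.4-fold. KO minus WT was -1.59 ± 0.99 (SE, adjusted p = 0.605), and 0.20 without WT arrays 3 and 4.

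P4ha1 and P4ha2 encode catalytic subunits of the prolyl hydroxylase that matures collagen. P4ha1 stood at -1.51, -2.86, 0.03 and -0.05 on the WT arrays and -1.82, -3.34, -2.11 and -3.34 on the KO arrays. The ranking went beyond WT arrays 3 and 4: the lowest values were those of WT array 2 and KO arrays 2 and 4, with WT array 1 and KO arrays 1 and 3 between, so the genotypes overlapped. KO minus WT was -1.55 ± 0.69 (SE, adjusted p = 0.58), and -0.46 without WT arrays 3 and 4. P4ha2 stood at -0.59, -0.81, 0.73 and 0.70 on the WT arrays and -0.77, -0.96, -0.82 and -0.92 on the KO arrays. WT array 2 lay within the KO range, and the other 3 WT arrays lay above all KO arrays. The log2 difference was -0.87 ± 0.36 (SE, adjusted p = 0.58), and -0.16 without the pair.

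Vegfa, the growth factor for blood vessels, showed the same order as P4ha1 in that the same 5 arrays were highest. It stood at 1.12, 0.36, 2.85 and 2.94 on the WT arrays and 1.18, -0.05, 0.97 and 0 on the KO arrays. The difference was -1.29 ± 0.62 (SE, adjusted p = 0.58), and -0.22 without the high pair. The 5 highest brain arrays were WT 1, 3 and 4 and KO 1 and 3 in 15 of 34 members, against 4.84% of all genes.

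Car9, a carbonic anhydrase that exports acid from hypoxic cells, was the 1 member whose brain groups did not overlap, against 2.44% of all genes that lay apart and lower. It stood at -4.35, -4.20, -3 and -2.73 on the WT arrays and -4.77, -4.55, -4.71 and -4.65 on the KO arrays. Every KO array lay below every WT array, with WT arrays 1 and 2 close above them. The difference was -1.10 ± 0.36 (SE, adjusted p = 0.58), and -0.39 without WT arrays 3 and 4.

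Bnip3, a mitochondrial receptor for autophagy, stood at 3.09, 2.94, 5.01 and 5.08 on the WT arrays and 2.90, 2.85, 3.14 and 3.04 on the KO arrays. Here the 6 arrays other than WT 3 and 4 lay within a narrow band. The difference was -1.04 ± 0.52 (SE, adjusted p = 0.58), and -0.027 without the pair. All 3 probes of Bnip3 had WT arrays 3 and 4 as the 2 highest. Ndrg1, a stress-induced gene, stood at 2.14, 1.83, 2.91 and 3.03 on the WT arrays and 2.12, 1.68, 1.97 and 1.48 on the KO arrays. Its WT arrays 3 and 4 were again highest and the remaining arrays overlapped. The difference was -0.66 ± 0.29 (SE, adjusted p = 0.58), and -0.17 without the pair.

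Ddit4, an inhibitor of mTORC1, and Higd1a, a mitochondrial protein induced by hypoxia, had KO minus WT differences of -0.63 ± 0.59 (SE, adjusted p = 0.709) and -0.46 ± 0.24 (SE, adjusted p = 0.58). Without WT arrays 3 and 4 these were 0.49 and -0.027. Mxi1, an antagonist of Myc, had intensities of 2.5 to 13.5, within 2-fold of the lowest value on 6 of 14 arrays, and its values carry little information.

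The oxygen-sensing genes gave a like picture. Egln3, an inducible prolyl hydroxylase that acts on HIF, stood at -2.26, -2.67, -0.91 and -0.86 on the WT arrays and -2.44, -3.11, -2.50 and -3.06 on the KO arrays. WT array 2 lay within the KO range and WT arrays 3 and 4 far above it. The difference was -1.10 ± 0.43 (SE, adjusted p = 0.58), and -0.31 without the pair. Ankrd37, a HIF target, stood at 0.50, -1.03, 1 and 1.13 on the WT arrays and 0.34, -1.32, 0.06 and -0.98 on the KO arrays. WT array 2 and KO arrays 2 and 4 were low and WT arrays 3 and 4 highest, with WT 1, KO 1 and KO 3 between. The difference was -0.87 ± 0.55 (SE, adjusted p = 0.607), and -0.20 without the pair. Egln1, the main HIF prolyl hydroxylase, differed by -0.27 ± 0.19 (SE, adjusted p = 0.635), and Kdm3a, a histone demethylase, by -0.58 ± 0.34 (SE, adjusted p = 0.591). Without the pair these turned to 0.020 and 0.016.

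Among the pyruvate and lactate genes, Slc16a3 encodes the lactate exporter MCT4. It stood at -0.24, -1.56, 2.53 and 2.52 on the WT arrays and -0.38, -1.50, -0.01 and -1.67 on the KO arrays. WT arrays 3 and 4 lay above all others, and the lowest 3 were again WT 2, KO 2 and KO 4. The brain arrays spanned 18.4-fold. The difference was -1.71 ± 0.95 (SE, adjusted p = 0.584), and 0.007 without the pair.

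Ldha encodes the M subunit of lactate dehydrogenase, which favours lactate formation, and Ldhb the H subunit. Ldha in brain stood at 5.94, 5.57, 6.94 and 6.92 on the WT arrays and 5.79, 5.48, 5.88 and 5.37 on the KO arrays. The pair of high WT arrays stood apart and the other 6 overlapped. Ldhb stood at 4.24, 4.17, 4.33 and 4.25 on the WT arrays and 4.13, 4.30, 4.21 and 4.24 on the KO arrays. Its 8 arrays lay close together, the pair was not apart, and the difference was -0.027 ± 0.084 (SE, adjusted p = 0.906), or 0.014 without the pair. For Ldha it was -0.71 ± 0.33 (SE, adjusted p = 0.58), and -0.12 without the pair. Pdk1, the kinase that turns off pyruvate dehydrogenase, differed by -0.72 ± 0.44 (SE, adjusted p = 0.599), and by 0.14 without it.

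**Figure D2:**
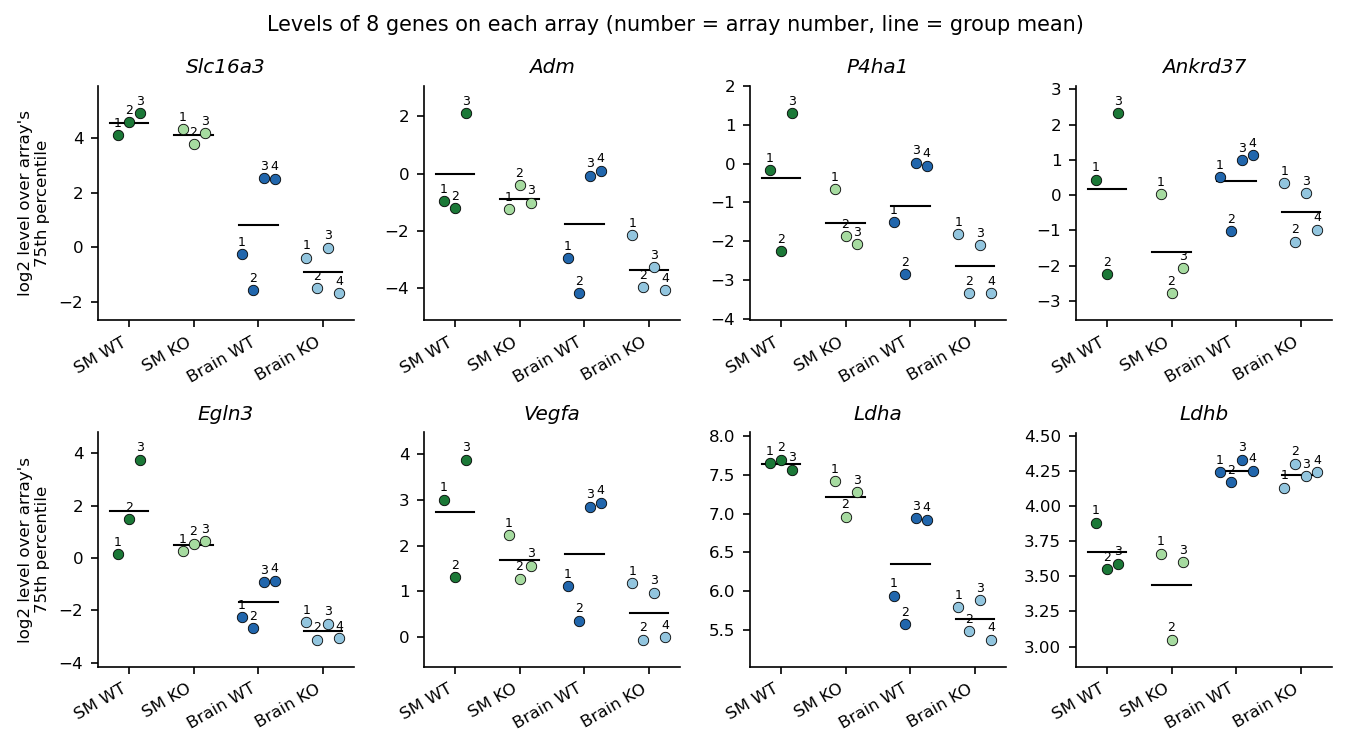
Each panel is 1 gene, and each point 1 array, labelled with its array number, with the group mean as a line. The vertical axes give log2 level over the 75th percentile of the array, on a scale of its own per panel. WT brain arrays 3 and 4 and WT muscle array 3 lie above the rest of their tissue for Adm, P4ha1, Egln3 and Vegfa, and Ldhb in brain ranges from 4.13 to 4.33.

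In lower glycolysis, Pgk1, phosphoglycerate kinase, stood at 4.31, 4.16, 5.34 and 5.30 on the WT arrays and 4.22, 4.04, 4.28 and 4.11 on the KO arrays. Only WT arrays 3 and 4 were above 5, and the difference was -0.62 ± 0.28 (SE, adjusted p = 0.58), or -0.076 without them. Pgam1, the brain form of phosphoglycerate mutase, stood at 4.83, 4.65, 5.66 and 5.63 on the WT arrays and 4.71, 4.61, 4.81 and 4.62 on the KO arrays. It had the same 2 arrays at the top, and the difference was -0.50 ± 0.24 (SE, adjusted p = 0.58), or -0.053 without them. Pgam2, the muscle form, stood at -3.06, -2.57, -3.17 and -2.70 on the WT arrays and -3.18, -3.31, -3.11 and -3.46 on the KO arrays. WT array 2 was highest, and WT array 3 lay within the KO range. The difference was -0.39 ± 0.16 (SE, adjusted p = 0.58), and -0.45 without arrays 3 and 4. The skeletal muscle list was also highest on WT brain array 2 (1.06 above the brain mean, other brain arrays -0.35 to -0.03); its part in this result was not tested. Gapdh differed by -0.17 ± 0.12 (SE, adjusted p = 0.63) and Pkm, pyruvate kinase, by -0.46 ± 0.25 (SE, adjusted p = 0.582), or 0.008 and -0.14 without the pair. Eno3, the muscle enolase, was 1 of 2 members above 0, at 0.17 ± 0.14 (SE, adjusted p = 0.67) and 0.18 without the pair; the other was Mxi1.

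In upper glycolysis, Tpi1, triosephosphate isomerase, stood at 4.41, 3.92, 5.36 and 5.42 on the WT arrays and 4.27, 3.99, 4.21 and 3.69 on the KO arrays. WT arrays 3 and 4 lay above the other 6, among which WT 1 was highest. The difference was -0.74 ± 0.34 (SE, adjusted p = 0.58), and -0.13 without the pair. Pfkp, the phosphofructokinase form of platelets and brain, stood at 2.47, 2.38, 3.19 and 3.29 on the WT arrays and 2.42, 2.30, 2.43 and 2.33 on the KO arrays. Apart from WT arrays 3 and 4, its values lay between 2.30 and 2.47, and the difference was -0.46 ± 0.22 (SE, adjusted p = 0.58), or -0.055 without them. Aldoa, aldolase of muscle, stood at 6.39, 6.30, 7.30 and 7.22 on the WT arrays and 6.25, 6.40, 6.43 and 6.33 on the KO arrays. Its highest values were again those of WT arrays 3 and 4. Pfkl, Pfkm, Aldoa and Aldoc had differences of -0.66, -0.20, -0.45 and -0.26, which became -0.057, -0.047, 0.006 and -0.068 without the pair.

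For hexose uptake and phosphorylation, Hk2, the inducible hexokinase on mitochondria, stood at -3.65, -3.80, -1.19 and -1.20 on the WT arrays and -3.63, -4.09, -3.20 and -3.60 on the KO arrays. WT arrays 3 and 4 lay above every other array, and the brain arrays spanned 7.47-fold. The difference was -1.17 ± 0.65 (SE, adjusted p = 0.584), and 0.098 without the pair. Hk1, the constitutive hexokinase, stood at 5.31, 4.88, 5.34 and 5.22 on the WT arrays and 4.98, 5.23, 5.31 and 5.08 on the KO arrays. With this probe the groups overlapped without a high pair, and the difference was -0.035 ± 0.13 (SE, adjusted p = 0.923), or 0.057 without arrays 3 and 4. On its other 2 probes these arrays were the 2 highest. Slc2a1 encodes GLUT1, the glucose transporter of the blood-brain barrier, and Slc2a4 the insulin-regulated GLUT4; they differed by -0.67 ± 0.46 (SE, adjusted p = 0.626) and -0.32 ± 0.28 (SE, adjusted p = 0.7). Without WT arrays 3 and 4 both turned, to 0.13 and 0.18.

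Over the whole set, 0 of 34 members passed an adjusted p of 0.05 between KO and WT brain (limma, smallest adjusted p = 0.58), where 5 of all genes (0.0228%) did. At an unadjusted p under 0.05 there were 4 members, Car9, Egln3, Pgam2 and P4ha2, against 8.35% of all genes. The log2 difference was below 0 in 32 of 34 members and in 47.8% of all genes. The median of the members was -0.62 and that of all genes 0.012. Without WT arrays 3 and 4, 19 of 34 members lay below 0, with a median of -0.037 and a range of -0.46 to 0.49. With the pair averaged into 1 sample the median was -0.41. With array weights, which let limma count arrays unequally, 21 of 34 members passed, as did 2158 of all 21893 genes. The member median was then -1.04. The part of WT arrays 3 and 4 in these calls was not tested.

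Several marker lists were also high on WT brain arrays 3 and 4. The astrocyte list (9 of 9 genes measured) lay 0.51 and 0.41 above its brain mean on WT arrays 3 and 4, and between -0.40 and 0.02 on the other 6. The neutrophil list (6 of 6) lay 1.40 and 0.56 above, with -0.88 to 0.19 elsewhere. The immediate early genes (10 of 10), which respond within minutes to stimulation or stress, lay 0.86 and 0.35 above, with -0.67 to 0.36 on the other arrays, so that WT array 4 lay within the range of the others. The microglia and macrophage list (6 of 6) lay 0.35 and 0.24 above, with -0.23 to 0.19 elsewhere. The neuron list stayed between -0.10 and 0.13. The part of these in the results was not tested.

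In muscle, 0 of 34 members passed (limma; 0% of all genes), and 0 had an unadjusted p under 0.05, where 341 genes (1.56%) did. All 34 log2 differences were below 0, against 53.4% of all genes, with a median of -0.59. Without scaling between arrays or with quantile normalization 32 of 34 were below 0. Without WT array 3, 26 of 34 were, with a median of -0.28. The groups did not overlap, with KO lower, in 5 members (Aldoa, Pkm, Ldha, Egln1 and Higd1a), against 2.09% of all genes.

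Higd1a had the smallest unadjusted p of the members, at 5.03, 4.76 and 5.51 on the WT arrays and 4.71, 4.17 and 4.39 on the KO arrays. No KO array reached the lowest WT array. The difference was -0.67 ± 0.29 (SE, adjusted p = 1), and -0.47 without WT array 3. Ldha stood at 7.65, 7.70 and 7.57 on the WT arrays and 7.42, 6.96 and 7.28 on the KO arrays. WT array 3 was the lowest of its group here, and the difference, -0.42 ± 0.23 (SE, adjusted p = 1), was -0.46 without it. Pkm stood at 4.78, 4.93 and 5.30 on the WT arrays and 4.71, 3.95 and 4.61 on the KO arrays and differed by -0.58 ± 0.30 (SE, adjusted p = 1), or -0.43 without WT array 3. KO array 2 was the lowest in each of these 3 genes.

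Aldoa in muscle stood at 8.80, 8.66 and 8.97 on the WT arrays and 8.54, 8.26 and 8.42 on the KO arrays, with a difference of -0.40 ± 0.23 (SE, adjusted p = 1), or -0.32 without WT array 3. Egln1 stood at -2.08, -2.22 and -0.91 on the WT arrays and -2.44, -2.67 and -2.32 on the KO arrays. WT array 3 was far above the others, which ran closely together, and the difference of -0.74 ± 0.39 (SE, adjusted p = 1) became -0.33 without it. Hk2 stood at 3, 1.82 and 3.39 on the WT arrays and 2.22, 1 and 1.68 on the KO arrays. WT array 2 lay within the KO range, and the difference was -1.10 ± 0.50 (SE, adjusted p = 1), or -0.77 without WT array 3.

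The widest spans in muscle were those of Slc2a1 (36-fold), Ankrd37 (34.6-fold) and Car9 (21.8-fold), with WT array 3 at the top of each. KO minus WT was -1.29 ± 1.2 (SE) for Slc2a1 and -1.78 ± 1.2 (SE) for Ankrd37. Without WT array 3 these became 0.031 and -0.71. Car9 stood at -3.22, -3.08 and 1.13 on the WT arrays and -2.09, -3.31 and -3 on the KO arrays. Every array but WT 3 lay at -2.09 or below, and the difference of -1.08 ± 1.15 (SE, adjusted p = 1) turned to 0.35 without that array. Egln3 stood at 0.16, 1.48 and 3.76 on the WT arrays and 0.25, 0.55 and 0.64 on the KO arrays. KO arrays ran together between WT arrays 1 and 2, and the difference of -1.32 ± 0.84 (SE, adjusted p = 1) became -0.34. Adm stood at -0.97, -1.20 and 2.12 on the WT arrays and -1.23, -0.40 and -1.01 on the KO arrays, and its difference of -0.87 ± 0.87 (SE, adjusted p = 1) turned to 0.20.

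Vegfa in muscle stood at 3, 1.31 and 3.88 on the WT arrays and 2.23, 1.28 and 1.56 on the KO arrays. WT array 2 lay with the lowest KO arrays, and the difference of -1.04 ± 0.65 (SE, adjusted p = 1) became -0.46 without WT array 3. Pdk1 stood at 0.80, -0.01 and 1.34 on the WT arrays and 0.21, 0.12 and -0.25 on the KO arrays. WT array 2 lay within the KO range and the other WT arrays above it. The difference was -0.68 ± 0.38 (SE, adjusted p = 1), and -0.37 without that array. Pgk1 stood at 4.97, 5.85 and 6.34 on the WT arrays and 4.86, 5.09 and 5.46 on the KO arrays, with WT array 1 within the KO range, and its difference of -0.58 ± 0.40 (SE, adjusted p = 1) became -0.27. On WT muscle array 3 the erythroid list (5 of 6 genes measured) lay 1.94 above the muscle mean, the immediate early genes 1.76 and the fast fibre list (8 of 8) 0.73. The other muscle arrays held -1.19 to 0.44, -0.85 to 0.18 and -0.64 to 0.57 for these lists. The cartilage and bone list was high on KO arrays 1 and 3 (2.81 and 2.15, others -1.51 to -0.95). The keratinocyte list (6 of 6) lay at 1.00, 1.64 and -0.42 on the KO muscle arrays and -0.83, -0.36 and -1.03 on the WT muscle arrays. Their part in the results was not tested.

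**Figure D3:**
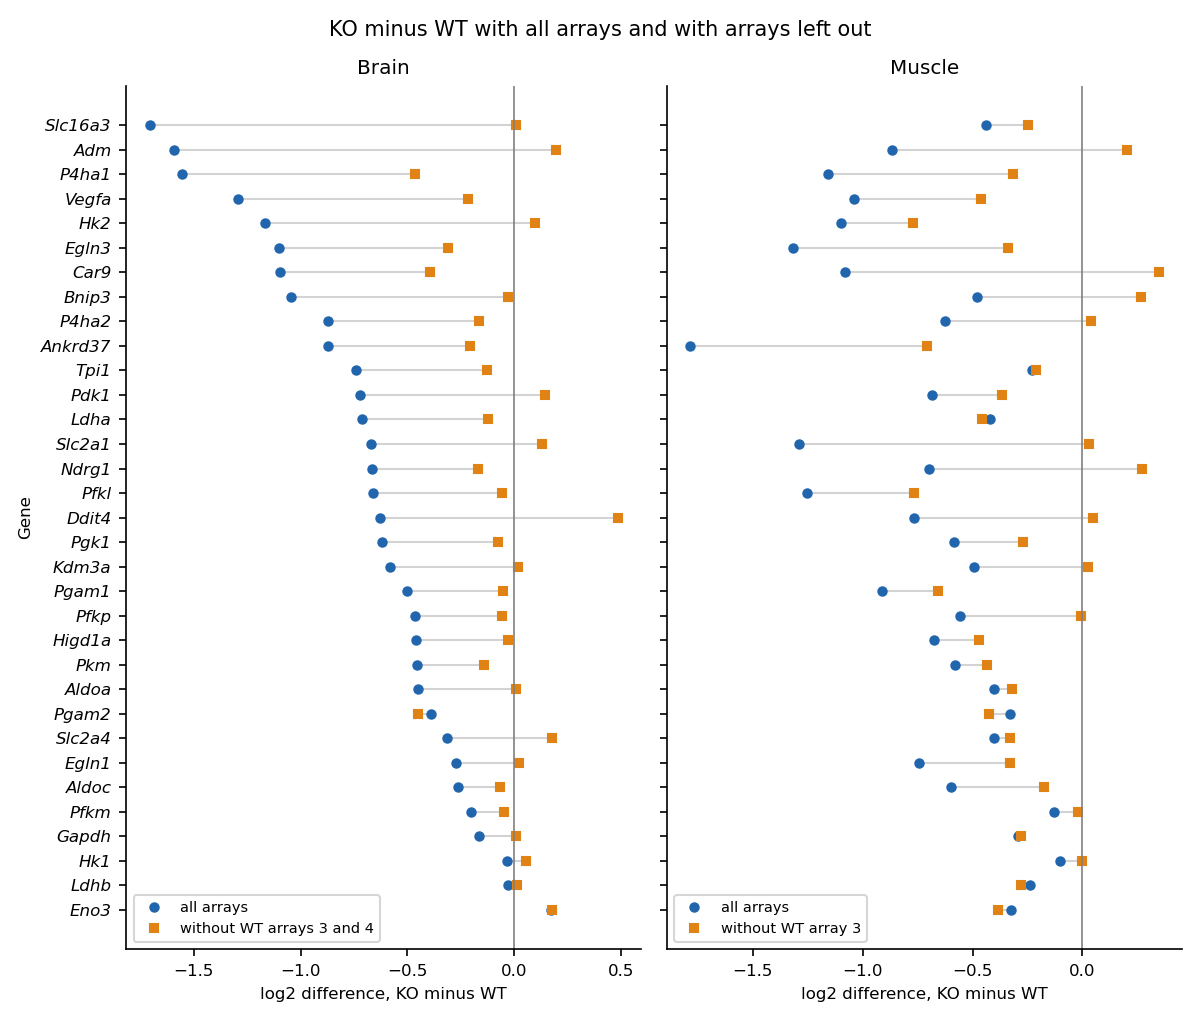
Each row is a gene. Blue points give the log2 difference, KO minus WT, with all arrays, and orange squares the same without WT brain arrays 3 and 4 (left) or without WT muscle array 3 (right). In brain the squares lie between -0.46 and 0.49, and in muscle between -0.77 and 0.35.

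The KO effect did not pass as different between tissues for any member (0 of 34 in limma with all 14 arrays, 0 at an unadjusted p under 0.05; 2 genes or 0.00914% of all genes passed and 3.09% had p under 0.05). The brain minus muscle differences ran from -1.27 for Slc16a3 (SE 1.20) to 0.91 for Ankrd37 (SE 1.36), with a median of 0.052. Without WT brain arrays 3 and 4 the median was 0.52, and without WT muscle array 3 it was -0.30.

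Between tissues several isoforms lay far apart, as given below. In WT mice, 18 of 34 members differed between brain and muscle, a share near that of all genes (54.9%). Of these, 15 were lower and 3 higher in brain, against 29.5% and 25.3% of all genes. In KO mice, which that comparison did not use, 26 of 34 differed (59.4% of all genes), 21 lower and 5 higher, against 31.3% and 28.1% of all genes. All 18 passed in KO as well, in the same direction, and 33 of 34 members had the same sign. The shares of all genes include dim genes, while 32 of the 34 members lay above the median level. With only genes above that level, 7690 genes and 18 of 32 members passed in WT. Of the genes above that level, 10926 had values on every array. The member median was -1.11 in WT and -1.24 in KO. The WT median became -0.56 without WT muscle array 3, -1.85 without WT brain arrays 3 and 4, and -0.70 with quantile normalization. Of the 18, 11 kept a call under every alternative, among them Hk1, whose direction depended on the probe.

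Phosphoglycerate mutase gave the largest difference. Pgam2, the muscle form, stood at 6.30, 6.95 and 6.34 on the WT arrays and 6.55, 5.76 and 6.28 on the KO arrays in muscle, far above every brain value given earlier. Brain minus muscle was -9.40 ± 0.24 (SE, adjusted p = 1.29e-07) in WT, a 677.4-fold lower intensity, and -9.46 ± 0.21 (SE, adjusted p = 9.06e-08) in KO. Pgam1 stood at 4.71, 3.32 and 4.79 on the WT arrays and 4.08, 3.21 and 2.79 on the KO arrays in muscle. Its groups overlapped in WT (0.92 ± 0.43, SE, adjusted p = 0.112), and it was higher in KO brain (1.33 ± 0.29, SE, adjusted p = 0.00523).

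Eno3 stood at 7.53, 7.93 and 7.56 on the WT arrays and 7.49, 7.02 and 7.54 on the KO arrays in muscle and 0.21, 0.68, 0.46 and 0.45 on the WT arrays and 0.40, 0.64, 0.58 and 0.88 on the KO arrays in brain. No brain array came near a muscle array, with differences of -7.23 ± 0.19 (SE, adjusted p = 1.35e-07) in WT and -6.73 ± 0.19 (SE, adjusted p = 2.12e-07) in KO. Aldolase split the same way. Aldoa was lower in brain (-2.01 ± 0.30, SE, adjusted p = 0.000707 in WT) and Aldoc, the brain form, was higher. Aldoc stood at 0.56, 0.78 and 1.94 on the WT arrays and 0.82, 0.97 and -0.30 on the KO arrays in muscle and 5.72, 5.66, 6.02 and 6.13 on the WT arrays and 5.44, 5.76, 5.68 and 5.61 on the KO arrays in brain, a difference of 4.79 ± 0.34 (SE, adjusted p = 1.32e-05) or 27.7-fold in WT and 5.13 ± 0.31 (SE, adjusted p = 6.17e-06) in KO.

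Phosphofructokinase, the committed step of glycolysis, had 3 forms measured. Pfkm, the muscle form, was lower in brain, with a log2 difference of -1.88 ± 0.24 (SE, adjusted p = 0.000324) in WT. Its levels were 4.64, 5.44 and 5.37 on the WT arrays and 4.92, 4.52 and 5.61 on the KO arrays in muscle and 3.10, 3.14, 3.38 and 3.48 on the WT arrays and 3.13, 3.10, 3.03 and 3.02 on the KO arrays in brain, with no overlap. Pfkp was higher in brain, by 2.84 ± 0.48 (SE, adjusted p = 0.00142) in WT and 2.93 ± 0.17 (SE, adjusted p = 5.68e-06) in KO, from muscle levels of -0.19, -0.91 and 1.09 on the WT arrays and -0.41, -0.35 and -0.92 on the KO arrays. Pfkl, the liver form, stood at 1.21, -1.45 and 1.35 on the WT arrays and -0.03, -1.32 and -1.31 on the KO arrays in muscle and 0.98, 0.48, 1.95 and 1.93 on the WT arrays and 0.99, 0.61, 0.98 and 0.10 on the KO arrays in brain. Its WT groups overlapped (0.96 ± 0.72, SE, adjusted p = 0.309), and in KO it was higher in brain (1.55 ± 0.38, SE, adjusted p = 0.00891).

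Glucose entry differed as well. Slc2a4 stood at 4.50, 4.56 and 4.74 on the WT arrays and 3.88, 4.07 and 4.65 on the KO arrays in muscle and -1.51, -1.20, -0.37 and -0.37 on the WT arrays and -1.46, -0.91, -1.33 and -1.01 on the KO arrays in brain, with a difference of -5.46 ± 0.32 (SE, adjusted p = 4.47e-06) in WT. Slc2a1 stood at 1.37, -0.33 and 4.49 on the WT arrays and 1.48, 0.85 and -0.68 on the KO arrays in muscle and 1.54, 0.74, 2.69 and 2.80 on the WT arrays and 1.48, 0.99, 1.73 and 0.90 on the KO arrays in brain. Its groups overlapped in both genotypes. Hk2 was lower in brain, with log2 differences of -5.20 ± 0.78 (SE, adjusted p = 0.000778) in WT and -5.26 ± 0.32 (SE, adjusted p = 7.24e-06) in KO, with every brain array at -1.19 or below.

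Hk1 stood at 6.44, 6.49 and 6.77 on the WT arrays and 6.70, 6.37 and 6.32 on the KO arrays in muscle with the probe used, which was lower in brain (-1.38 ± 0.19, SE, adjusted p = 0.00045 in WT). Its probes disagreed. The probe used matches an mRNA entry other than that of the other 2, which were higher in WT brain by log2 differences of 2.47 and 2.96. With the mean of all probes Hk1 was higher in brain, by 1.35 in WT (adjusted p = 0.00544) and 1.70 in KO (adjusted p = 1.28e-05).

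For lactate, Ldha was lower in brain and Ldhb higher. Ldhb stood at 3.88, 3.55 and 3.59 on the WT arrays and 3.66, 3.05 and 3.60 on the KO arrays in muscle, below every brain value. The differences in WT were -1.29 ± 0.36 (SE, adjusted p = 0.0172) for Ldha and 0.57 ± 0.16 (SE, adjusted p = 0.0173) for Ldhb. The WT call of Ldhb was lost without brain arrays 3 and 4 (adjusted p = 0.151), without either of them (0.0598 and 0.0502), with them averaged (0.0531) and with the array number as a block (log2 difference 0.58, adjusted p = 0.0556). That of Ldha was lost with quantile normalization (adjusted p = 0.105), array weights (0.134) and without muscle array 2 (0.0504). That of Tpi1 was lost with quantile normalization (0.0799) and array weights (0.0709), and that of Gapdh with quantile normalization (0.073). Slc16a3, the exporter of glycolytic muscle, was lower in brain, with log2 differences of -3.72 ± 1.01 (SE, adjusted p = 0.0146) in WT and -4.99 ± 0.43 (SE, adjusted p = 4.16e-05) in KO. Its muscle levels were 4.10, 4.59 and 4.92 on the WT arrays and 4.33, 3.79 and 4.18 on the KO arrays, above every brain array. Its WT call was lost with array weights (log2 difference -2.42, adjusted p = 0.148).

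Of the oxygen-sensing and effector genes, Egln3 was lower in WT brain (-3.48 ± 0.85, SE, adjusted p = 0.0093), as were P4ha2 (-2.47 ± 0.64, SE, adjusted p = 0.0121), Higd1a (-1.59 ± 0.32, SE, adjusted p = 0.00379) and Pdk1 (-2.04 ± 0.57, SE, adjusted p = 0.0166). The call of Pdk1 was lost without muscle array 1 (adjusted p = 0.0515), without muscle array 3 (0.0569) and with array weights (0.149), and that of P4ha2 with array weights (0.0582). Hypoxia effectors with overlapping WT groups included Vegfa, Adm, Bnip3, Car9 and Ddit4. The first 4 of these passed as lower in KO brain, with log2 differences of -1.17, -2.48, -1.80 and -1.87. The KO call of Vegfa was lost with quantile normalization (adjusted p = 0.0533), with all 14 arrays in 1 model (0.16), and without KO brain array 2 (0.076) or 4 (0.0776) or KO muscle array 1 (0.102) or 3 (0.061). With all 14 arrays those of Adm (0.056), Car9 (0.0728) and Kdm3a (0.069) were lost as well. The 8 members called in KO and not in WT were Pfkl, Pgk1, Pgam1, Car9, Vegfa, Adm, Bnip3 and Kdm3a. With the array number as a block, 23 of 34 members passed in WT, and 11167 of all 21893 genes did. Gained as lower in brain were Pgk1, Vegfa, Adm, Bnip3, P4ha1 and Kdm3a. Their log2 differences were -1.12, -1.29, -2.38, -1.59, -1.07 and -1.12, with limma adjusted p of 0.03, 0.02, 0.00425, 0.0142, 0.022 and 0.0148, and Ldhb was lost. WT brain array 4 has no muscle array of its number, so the block leaves it out of the difference. Without that array and with no block, 17 of 34 members passed. The member median was then -1.34, as with the block. Whether the tissue difference itself differed between genotypes is the test of the KO effect between tissues above, which no member passed.

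**Figure D4:**
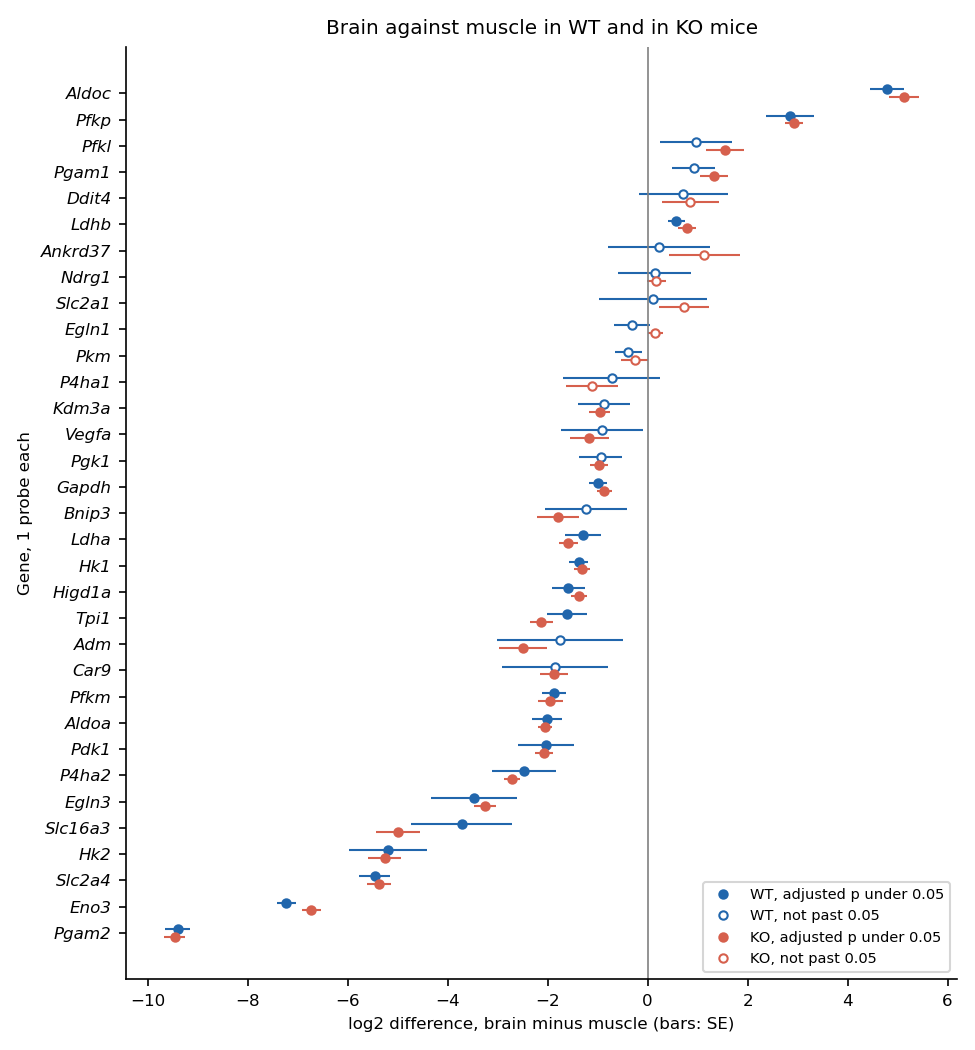
Points give the log2 difference, brain minus muscle, for 33 genes in WT (blue) and KO (red), with SE bars. Filled points passed an adjusted p of 0.05. Aldoc and Pfkp lie at the top, between 2.84 and 5.13, and Pgam2, Eno3, Slc2a4 and Hk2 at the bottom, between -9.46 and -5.20.

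Further genes of the pathways were read from lists. Of the 35 symbols listed as further HIF targets, 32 were measured, and 0 passed between KO and WT in either tissue. The symbols include older and current names of the same gene (Ero1l and Ero1a, Ak4 and Ak3l1). In brain 25 of 32 lay below 0 and in muscle 29 of 32, against 47.8% and 53.4% of all genes. WT brain arrays 3 and 4 were the 2 highest in 24 of 32 (15.4% of all genes). WT muscle array 3 was the highest of the muscle arrays in 24 of 32 (25.8% of all genes). Slc2a3, the neuronal glucose transporter GLUT3, stood at 1.83, 1.72, 2.73 and 2.84 on the WT arrays and 1.64, 1.67, 1.64 and 1.52 on the KO arrays in brain. WT arrays 3 and 4 lay highest and all other arrays between 1.52 and 1.83. In muscle it stood at -2.29, -2.38 and 1.51 on the WT arrays and -2.26, -1.91 and -2.61 on the KO arrays, where WT array 3 alone was above 0. Fgf21, a hormone released by stressed muscle and liver, stood at -6.95, -5.68 and -2.14 on the WT arrays and -7.34, -5.83 and -6.52 on the KO arrays in muscle. WT array 3 was again far above the rest, which were dim, down to an intensity of 6.27. Lox, which cross-links collagen, was lower in WT brain than in WT muscle (-3.79 ± 0.44, SE, limma adjusted p = 0.000181).

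Among the 9 HIF regulators, 0 passed in either KO comparison. In brain 3 of 9 lay below 0 and in muscle 7 of 9, against 47.8% and 53.4% of all genes. WT muscle array 3 was the highest of the muscle arrays in 5 of 9 (25.8% of all genes). WT brain arrays 3 and 4 were the 2 highest in 3 of 9 (15.4% of all genes). Hif1a, the oxygen-regulated subunit, stood at -1.48, -1.11, -1.37 and -1.35 on the WT arrays and -1.18, -1.31, -0.81 and -0.90 on the KO arrays in brain. It showed no high pair, and KO minus WT was 0.27 ± 0.14 (SE; limma adjusted p = 0.58). Its partner Arnt was lower in WT brain than muscle, with a log2 difference of -2.34 ± 0.23 (adjusted p = 7.23e-05), and the neuronal partner Arnt2 was higher by 4.74 ± 0.31 (adjusted p = 8.81e-06). Arnt2 levels were -4.91, -4.01 and -5.35 on the WT arrays and -4.44, -4.35 and -4.25 on the KO arrays in muscle and -0.20, 0.22, -0.02 and -0.07 on the WT arrays and 0.04, 0.15, 0.12 and 0.23 on the KO arrays in brain, without overlap.

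Of the other glycolysis genes 31 of 34 were measured, and 0 passed in either KO comparison. In brain 18 of 31 lay below 0 and in muscle 24 of 31, against 47.8% and 53.4% of all genes. WT muscle array 3 was the highest of the muscle arrays in 11 of 31 (25.8% of all genes). WT brain arrays 3 and 4 were the 2 highest in 12 of 31 (15.4% of all genes). Slc2a3, Pfkfb3, Pfkfb4, Gys1 and Gbe1 were on this list and on that of the further HIF targets, so the lists are not separate. Between WT tissues 22 of 31 passed (54.9% of all genes), 7 higher and 15 lower in brain, against 25.3% and 29.5% of all genes. Lower in brain were Pck1, which makes phosphoenolpyruvate in gluconeogenesis, Gpd1, the cytosolic glycerol phosphate dehydrogenase (-7.02 ± 0.76, adjusted p = 0.000125), and Pygm, muscle glycogen phosphorylase (-6.58 ± 0.23, adjusted p = 3.77e-07). Pck1 had intensities of 3987 to 22720 in muscle and 2.96 to 7.41 in brain, where 6 of 8 arrays lay within 2-fold of their lowest value, so no size is given for its difference.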

How the data were processed

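RNA of skeletal muscle and brain was measured on 14 arrays, with 3 WT and 3 KO samples of muscle and 4 WT and 4 KO samples of brain, grouped by the labelled tissue and genotype. The authors deposited 1 table of 55681 probes with intensity values on a linear scale. Per the submitters' processing notes Agilent Feature Extraction produced them; version and later steps are not given in the sources used here. Array percentiles differed, as they would in values not yet scaled to each other.

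Named probes (30626) carried 1 gene symbol each from the platform annotation, and 25055 probes were not listed there. From log2 of each intensity the 75th percentile of the named probes of its array was subtracted, with no offset. For each gene the brightest probe by its mean over 14 arrays was used (21893 genes, 6807 with at least 2 probes); 11 of the 34 measured members had several probes. Blank cells (129) were not used. Of the probes named, 2 probes of Eno1b were not taken for Eno1.

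Differences were tested with limma 3.58.1 in R 4.3.3 (lmFit and eBayes, 2-sided) over all genes, with Benjamini-Hochberg adjustment and a threshold of 0.05. Same-numbered WT muscle and WT brain arrays deviated from their group means together (correlations of 0.18, 0.419 and 0.398). The numbers were taken as pairs only in the block alternative, so the main SE, p-values and counts between WT tissues ignore any pairing. The pairing comes from the values, as the labels name no animal. Array 1 of brain correlated equally with muscle arrays 1 and 2, and muscle array 3 with brain array 4 (0.35) nearly as with brain array 3. These correlations therefore do not settle which arrays share an animal. Each comparison used its own 2 groups, without a block in the main model, and the difference of the KO effects used all 14 arrays. The code was tested on simulated data. Promoter motifs were counted in RefSeq windows of GRCm38.p6, used for no other coordinates.

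All 36 members could be named. Values of every array were given for the isoform families of glycolysis (Hk, Pfk, Aldo, Pgam, Eno, Ldh and Slc2a) and for Celf1. For the 12 members with the smallest p in each KO comparison they were given at least for the tissue compared. Slc16a3, Adm, Bnip3 and Ankrd37 were added for their wide range after values were seen, Bnip3 and Ankrd37 with brain values only. Of other pathway lists, the 3 smallest p in brain KO and the 3 largest called tissue differences could be named. The members, lists and tests were chosen with earlier results of these data known. Alternatives changed the scaling, offset, probe choice, filter on dim genes, variance model, array weights, block and arrays included; 2 of them were chosen after seeing the data.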

Additional observations from a re-analysis of the deposited data

How the results depend on the processing

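In muscle the number of genes called (0) became 1 with 50 added to each intensity or with genes above the median level, 9 with all 14 arrays in 1 model, and 0 to 1 with single arrays left out. In brain the number called (5) became 3 without scaling and with genes above the median level, 2 with all 14 arrays, 2158 with array weights, 0 without WT arrays 3 and 4, 1 with these averaged, and 1 to 9 with single arrays left out. Members called in brain were 21 with array weights, and the member median was -0.037 without WT arrays 3 and 4. In WT, brain against muscle gave 7690 genes above the median level (12011 in all); the member median (-1.11) was -0.313 with array weights and -1.85 without WT brain arrays 3 and 4. In KO it gave 8270 (13006 in all), and the median (-1.24) was -1.05 with quantile normalization and -1.47 with array weights. For the KO effect between tissues, 1 gene in place of 2 was called with 50 added, with array weights, without WT brain arrays 3 and 4, and without these and WT muscle array 3, and 1 to 8 with single arrays left out. Its member median (0.052) was -0.637 with array weights and 0.52 without the brain pair. Hk1 reversed with the mean of all probes (1.35 in WT, 1.70 in KO), whose probes disagree; the cause of the other changes was not tested beyond the arrays or genes left out. Omitting the scaling moved the median of all genes in muscle from -0.027 to 0.137. Members that passed no threshold changed sign in 17 of their values under the alternatives in muscle, 20 in brain, 28 between WT tissues, 1 between KO tissues and 146 for the KO effect between tissues.

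With the array number as a replicate block, the genes called were 0 in brain and 1 for the KO effect between tissues, Ankrd37 gained a call between KO tissues (1.30, adjusted p = 0.0448) and Celf1 lost its brain call (-1.71, adjusted p = 0.23). Deviations of same-numbered WT and KO arrays correlated at 0.217, -0.246 and 0.101 in muscle and 0.156, 0.021, 0.255 and 0.030 in brain, and those of same-numbered muscle and brain arrays in KO at 0.283, 0.046 and -0.1, so these numbers were not taken as pairs. Between WT tissues, where same-numbered arrays deviated together, the block changed no call of a member other than the 7 given with that comparison. Signal near the lowest intensities limits Mxi1.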

Other observations

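Genes that are not members had profiles like that of the members over the brain arrays, though not the same order of every array. Among 10909 genes above the median level, 544 (4.99%) had a Pearson r over 0.9 with the mean profile of the members over the 8 brain arrays; these arrays share the high pair, so r is a description. The highest r was that of Fam162a (0.998), a mitochondrial protein induced by hypoxia and also on the list of further HIF targets. Its levels were 2.30, 2.03, 3.48 and 3.46 on the WT arrays and 2.25, 1.94, 2.32 and 1.87 on the KO arrays. WT arrays 3 and 4 stood apart and the other 6 overlapped.

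Next came Ptpru, a receptor tyrosine phosphatase (r = 0.994), Rgs11, a regulator of G-protein signalling (0.990), Rell1 (0.990), Ier3, an early response gene (0.989), and Lamp2, a lysosomal membrane protein (0.988). Ier3 stood at -3.20, -3.60, -1.30 and -1.23 on the WT brain arrays and -3.24, -3.32, -3.11 and -3.62 on the KO brain arrays. Rgs11 stood at 1.26, 1.05, 2.75 and 2.82 on the WT arrays and 1.28, 0.80, 0.99 and 0.76 on the KO arrays. In both genes the high pair lay more than 1 log2 unit above every other array. In muscle, 8 of the 10 genes with the highest r were highest on WT array 3, as were 25.8% of all genes, and the other 2, 5031434O11Rik and Pamr1, on KO array 2.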
